A study of Mus musculus with 2 samples.

Results

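Cycling epithelial progenitors are the dividing cells of the gut lining, and they were picked here from single-cell RNA counts of 2 mouse embryos by a rule on the counts themselves. A UMI, or unique molecular identifier, tags 1 captured RNA molecule. A cell qualified with at least 500 genes detected, at least 5 UMIs summed over the 6 epithelial genes Epcam, Krt8, Krt18, Krt19, Cldn7 and Lgals4, and at least 3 UMIs, making up at least 0.1% of its total, over 15 cell cycle genes. Cells with 3% or more of their UMIs from the goblet cell genes Tff3 and Spink4 were left out. The 15 cycle genes were Mki67, Top2a, Cdk1, Ccnb1, Ccnb2, Ccna2, Birc5, Cenpf, Ube2c, Rrm2, Tyms, Pcna, Mcm3, Mcm5 and Mcm6. The rule found 230 of 2492 cell barcodes, 118 of 1478 in one embryo and 112 of 1014 in the other. Cells that met every condition except the cycle minimums, 1070 and 407, are called the other epithelial cells.

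Both embryos were C57BL/6 at stage E18.5 and both carried Mlkl -/-; MLKL is the protein that ruptures the membrane in necroptosis. One had no other allele and is called Mlkl-null. The other also carried Casp8 C362A/C362A and is called Casp8-mutant; the change replaces the catalytic cysteine of caspase-8, the protease that starts death-receptor apoptosis. The source label names small intestine and the protocol whole intestines, which were digested with papain for 30 minutes and run on the 10x Chromium 3' v2 chemistry.

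Each genotype was 1 embryo, so no difference below has a replicate check, no p-value is given, and every interval covers counting error only. The embryos also differed in sex: in the cycling cells Xist had 0 UMIs in the Mlkl-null and 2283 in the Casp8-mutant library, and the Y-linked Ddx3y had 44 and 0. Sex, litter, dissection and library therefore cannot be told apart from genotype.

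In the fetal small intestine dividing cells sit between the villi and supply the enterocytes, goblet and enteroendocrine cells above them. Their cycle genes come in waves: licensing, nucleotide and replication fork genes serve S phase under E2F control, and cyclin B, spindle and cytokinesis genes serve G2 and mitosis, many through a CHR element read by the MuvB complex. Interferon-stimulated genes are switched on through the interferon-stimulated response element, or ISRE, and encode antiviral effectors and antigen presentation proteins.

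The libraries held 6290008 and 2804929 UMIs and shared 2 barcodes, neither of which was a member in both. Cycling cells had a median of 6328 UMIs in the Mlkl-null and 5685 in the Casp8-mutant library, with ranges of 1400 to 30885 and 1278 to 17121, and summed to 947419 and 690298. Other epithelial cells were shallower, with medians of 3799.5 and 1939. Barcodes in which haemoglobin genes made up at least 50% of UMIs, 52 and 123 with median depths of 2733.5 and 1364, served as a guide to free RNA. Whether their other UMIs were free RNA or their own RNA was not tested. Marker genes of 10 other cell classes were summed in the cycling cells. The 12 myeloid markers had 559 and 349 UMIs, with 68 of 112 Casp8-mutant cells at 3 or more against 18 of 118. Granulocyte markers had 21 and 2243 UMIs, all 112 Casp8-mutant cells holding at least 3 and no Mlkl-null cell doing so; Stfa1, Camp, Elane and Mpo were at 0 in the Mlkl-null and no marker was in the Casp8-mutant. Fibroblast markers had 302 and 139 UMIs, smooth muscle 357 and 21, pancreatic acinar 1470 and 47, lymphoid 31 and 11, neuron and glia 63 and 13, endothelial 26 and 9, mesothelial 69 and 19, and erythroid 8873 and 7052. Single Mlkl-null cells supplied 972 of the acinar, 285 of the smooth muscle, 210 of the fibroblast and 130 of the myeloid UMIs, and 1 Mlkl-null member had 76.0% of its UMIs from haemoglobin genes. The part of these markers in the results was not tested, except where a value without the mixed cells is given. A mixed cell held at least 20 UMIs of 1 of these classes, granulocyte, erythroid and mesothelial markers aside, or at least 10% haemoglobin.

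The cells carried the markers of dividing epithelium. Epcam, the epithelial adhesion molecule, had 1313 and 485 UMIs in the Mlkl-null and Casp8-mutant cycling cells, or 1386 and 703 CPM, the count scaled to 1000000 UMIs. Krt8, an epithelial keratin, had 918 and 576 UMIs. Top2a, the topoisomerase that untangles replicated DNA, had 367 and 237 UMIs, and the ubiquitin-conjugating enzyme Ube2c of mitotic exit 382 and 242. Rrm2, a subunit of ribonucleotide reductase, had 64 and 64. Mki67, the proliferation antigen, had 104 and 26 UMIs, or 110 and 37.7 CPM, and was seen in 58 of 118 and 18 of 112 cells. These genes chose the cells, so their levels are a description. Markers of adult crypt stem cells were nearly absent: Lgr5 had 8 and 3 UMIs, Ascl2 10 and 6, and Olfm4 0 and 1. The name progenitor thus rests on the epithelial and cycle genes.

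Cycling cells made up 9.93% of 1188 epithelial cells in the Mlkl-null library (95% Clopper-Pearson interval 8.29 to 11.8) and 21.6% of 519 in the Casp8-mutant library (18.1 to 25.4). The ratio was 2.17 (1.71 to 2.75, log-normal interval). Cells were also thinned to 2000 UMIs, and those with fewer were left out. This removed 114 Mlkl-null epithelial cells, 5 of them members, and 219 Casp8-mutant ones, 8 of them members. After thinning the shares were 81 of 1027, or 7.89%, and 71 of 282, or 25.2%, a ratio of 3.19. At that depth the minimum of 3 cycle UMIs, and not the percentage, set the limit. How far the removed cells and this limit raised the ratio was not tested. The ratio depended on where the cycle minimum was set: with 5 UMIs and 0.2% there were 61 and 28 members and the ratio was 1.05 (0.680 to 1.62). The ratio was 1.46 (0.977 to 2.17) without cells holding 3 or more UMIs of other-class markers, granulocyte, acinar, erythroid and mesothelial markers aside.

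Casp8-mutant members held fewer cycle UMIs each and lay nearer the limit. Cycling cells had a median of 16 cycle UMIs in the Mlkl-null and 9 in the Casp8-mutant library, or 0.201% and 0.156% of their UMIs. Just inside the limit, at 0.1 to 0.12%, lay 9 and 26 members, and just outside it, at 0.08 to 0.1%, 17 and 25 cells. A further 81 and 58 cells had at least 3 cycle UMIs but under 0.1%, and 11 and 3 passed the cycle minimums but were over the Tff3 and Spink4 limit. Summed over all epithelial cells the 15 genes had 550 CPM in the Mlkl-null and 855 in the Casp8-mutant library, a ratio of 1.56 (1.46 to 1.65). No cycle UMI was seen in 589 of 1188 Mlkl-null and 230 of 519 Casp8-mutant epithelial cells. The 15 genes had 2202 and 1621 CPM in the cycling cells and 198 and 403 in the other epithelial cells, levels that the rule itself sets on either side of its limit. The haemoglobin barcodes held the same genes, with a Top2a UMI in 3.85% of 52 and 12.2% of 123 and a Mki67 UMI in 7.69% and 8.13%. Ube2c had 1554 and 1424 CPM there, above its 403 and 351 CPM in the cycling cells, but 0.846 and 0.480 UMIs per barcode against 3.24 and 2.16 per cell. With Ube2c left out of the cycle sum there were 108 and 83 members, and the ratio of shares was 1.76 (1.35 to 2.30).

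**Figure D1:**
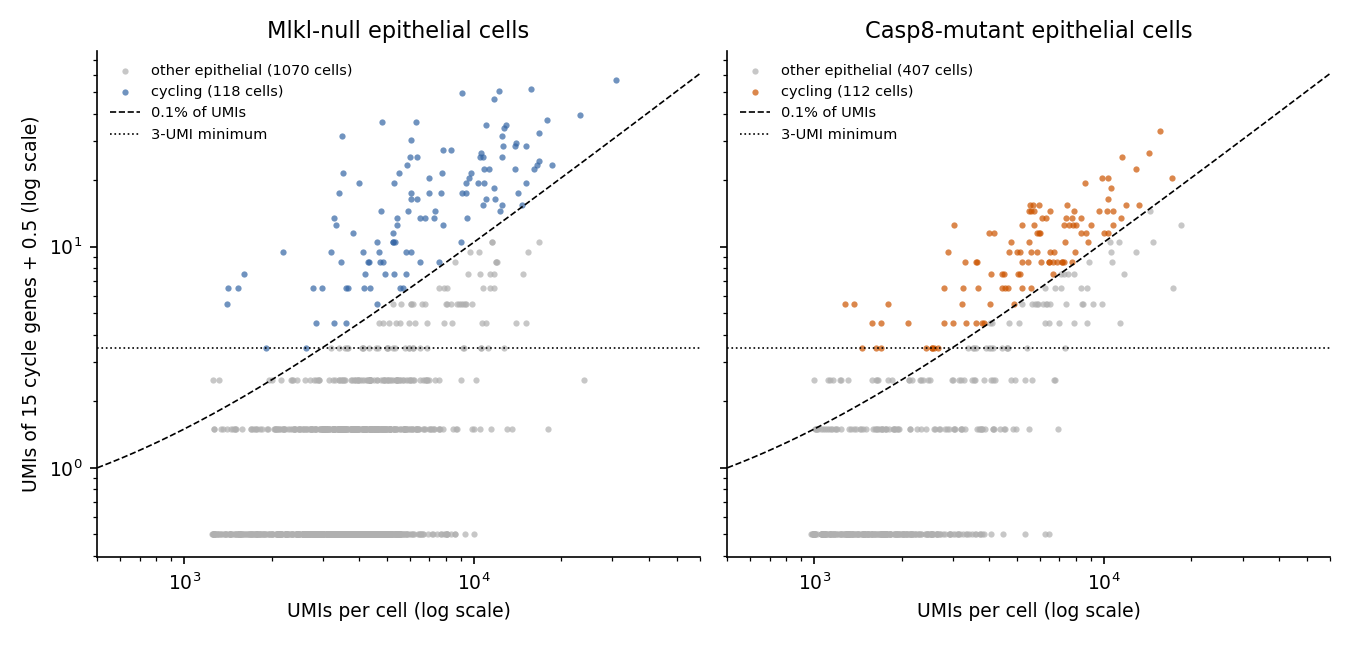
Cycle UMIs per epithelial cell against the cell's total UMIs, both on log axes, for each library; 0.5 is added to the cycle UMIs and to both lines, of which the dashed line is 0.1% of the total and the dotted line 3 UMIs. The 112 Casp8-mutant members lie closer to the lines than the 118 Mlkl-null members, with 26 against 9 at 0.1 to 0.12%.

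Genes outside the rule also marked the cycling cells. Compared with the other epithelial cells of the same library, Hmgb2, a chromatin protein of dividing cells, was 9.43-fold higher in the Mlkl-null and 2.37-fold in the Casp8-mutant library. Sgo1, the shugoshin that protects centromeric cohesion, was 20.8-fold and 3.25-fold higher. Histone genes were among the 12 genes ranked first in both libraries: Hist1h2ao was 15.9-fold and 4.11-fold higher, Hist1h2ak 6.68-fold and 3.63-fold, and Hist2h2ab 7.89-fold and 2.58-fold. Growth genes followed, with Rrp1b of ribosome biogenesis at 6.66-fold and 4.83-fold, the helicase Ruvbl2 at 3.80-fold and 2.87-fold, the mitochondrial chaperonin Hspd1 at 3.03-fold and 2.43-fold and nucleolin, Ncl, at 2.87-fold and 2.15-fold. Dek and Ranbp1, a chromatin protein and a Ran GTPase cofactor, were 4.71-fold and 4.32-fold higher in the Mlkl-null library and 2.37-fold and 2.08-fold in the Casp8-mutant. Each of these quotients was lower in the Casp8-mutant library. The other epithelial cells, which are the divisor, held more of the 15 cycle genes there, at 403 CPM against 198 in the Mlkl-null library. The part of the divisor in the lower quotients was not tested. The cells were chosen by cycle genes, so these values have no test.

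For the comparison of genotypes in cycling cells, UMIs were summed per library and a gene's share of all UMIs was divided, Casp8-mutant over Mlkl-null. A gene was called higher or lower at 2-fold or more with a 95% conditional exact interval that left out 1, among genes with at least 20 UMIs over both libraries. Of 8894 genes tested, 829 (9.32%) were called higher and 1463 (16.4%) lower, and the median log2 ratio was -0.28. Those 2 shares are the background for every list below. The counts were 391 and 635 with the cycle minimum of 5 UMIs and 0.2%, and 287 and 355 after thinning, where fewer genes were tested. In the other epithelial cells 17.1% of 13054 genes tested were higher and 15.2% lower, around a median of -0.12. The 2 cell groups share their embryos, so their ratios are set side by side and not counted as separate evidence.

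Few S phase genes outside the rule were called, beside 9.32% higher and 16.4% lower over all genes. Members were chosen by cycle genes, and the part of the rule in the ratios of the cycle lists was not tested. Of 8 replication licensing genes tested none was called higher and Mcm2, a subunit of the replicative helicase, was lower (38 and 13 UMIs, ratio 0.481, 0.230 to 0.901). Gmnn, which blocks relicensing, had 100 and 55 UMIs and a ratio of 0.758 (0.533 to 1.06). None of 11 nucleotide synthesis genes was called; Dut, which clears dUTP, had 96 and 78 UMIs. Of 18 replication fork and repair genes 2 were lower, the checkpoint adaptor Clspn with 31 and 9 UMIs and the histone chaperone subunit Chaf1b with 22 and 5. The ligase Lig1 of the fork had 160 and 102 UMIs and was not called. The medians of the 3 lists were -0.44, -0.34 and -0.53, beside -0.28 for all genes, and 0.91, 1.02 and 0.72 in the other epithelial cells.

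Spindle genes were the part of the cycle programme with most lower calls. Members were chosen by cycle genes, and Casp8-mutant members lay nearer the limit, with a median of 0.156% cycle UMIs against 0.201%. How far the rule sets the spindle ratios was not tested. Of 23 spindle and kinetochore genes tested, 12 were lower and none higher, beside 16.4% lower over all genes, and the median was -1.03. Cdca8, or borealin, of the chromosomal passenger complex, had 144 UMIs in the Mlkl-null and 42 in the Casp8-mutant cells (ratio 0.404, 0.277 to 0.568). Smc2, the condensin ATPase, had 127 and 38 (0.414, 0.278 to 0.594). Ncapd2, a second condensin subunit, had 53 and 11, the kinetochore motor Cenpe 64 and 18, and the spindle motor Kif11 46 and 16. Nusap1 had 125 and 35 UMIs (0.388) but also 2119 and 1907 CPM in haemoglobin barcodes, above its 132 and 50.7 CPM in the cycling cells. Smc4, Spc24, Bub1b and Ndc80 were not called, with ratios of 0.684, 0.671, 0.781 and 1.07. The summed list had 1539 and 811 CPM, a ratio of 0.527 (0.477 to 0.582), against 2.27 in the other epithelial cells. With the cycle minimum of 5 UMIs and 0.2% the log2 ratio of the sum was -0.97, beside -0.92, with 7 genes lower, and after thinning 1 gene was.

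Mitotic entry and exit genes were called lower about as often as all genes, of which 16.4% were. Their median log2 ratios were -0.19 and -0.83, beside -0.28 for all genes. The summed ratios were 0.927 (0.818 to 1.05) for entry and 0.657 (0.599 to 0.720) for exit. Of 13 mitotic entry genes 2 were lower, the inhibitory kinase Wee1 with 35 and 6 UMIs and the phosphatase Cdc25b with 26 and 8, and Cks1b, Cks2 and Plk1 had ratios of 0.922, 1.10 and 1.09. Of 15 mitotic exit and cytokinesis genes 3 were lower. These were the centralspindlin partners Kif23, with 54 and 18 UMIs, and Racgap1, with 53 and 18, and their exchange factor Ect2 with 37 and 12. None of the list was lower after thinning or with the cycle minimum of 5 UMIs and 0.2%. Cdc20, the activator of the anaphase-promoting complex, had 146 and 59 UMIs (0.557, 0.403 to 0.755) and was not called. Among the rule's own genes, given as description, Ccnb2 had 242 and 75 UMIs, Cenpf 114 and 36, Mcm6 92 and 30, Birc5 253 and 139, Cdk1 111 and 49, Ccna2 112 and 58, Ccnb1 52 and 25, Tyms 52 and 46, Pcna 47 and 27, Mcm3 45 and 29 and Mcm5 49 and 36. Of these Mki67, Ccnb2, Cenpf and Mcm6 had the lowest ratios, 0.348, 0.427, 0.438 and 0.453, and Rrm2 the highest, 1.37.

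The chromatin list went both ways, beside 9.32% higher and 16.4% lower over all genes. The histone genes Hist1h2ap, with 85 and 153 UMIs (ratio 2.46, 1.88 to 3.26), and Hist1h4c, with 17 and 28, were called higher, and the histones Hist1h2ao, with 113 and 280, and Hist1h2ak, with 23 and 82, were higher too. Stmn1, the microtubule destabiliser stathmin, was lower with 203 and 47 UMIs (0.320, 0.226 to 0.438). Near-identical histone copies may share reads, and the handling of shared reads by the authors is not stated in any label. Hmgb2 had 567 and 284 UMIs and Tubb5, a tubulin, 922 and 528, with neither called.

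Phase was compared by summing 49 S genes and 65 G2 and M genes in each cell. After thinning, 78.8% of 113 Mlkl-null members (70.1 to 85.9) and 76.9% of 104 Casp8-mutant members (67.6 to 84.6) had more G2 and M than S UMIs. The intervals overlapped widely. S genes made up 30.5% of these UMIs in the Mlkl-null and 34.8% in the Casp8-mutant cells, as deposited. Without the rule's genes the shares of cells were 69.9% and 66.3%.

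**Figure D2:**
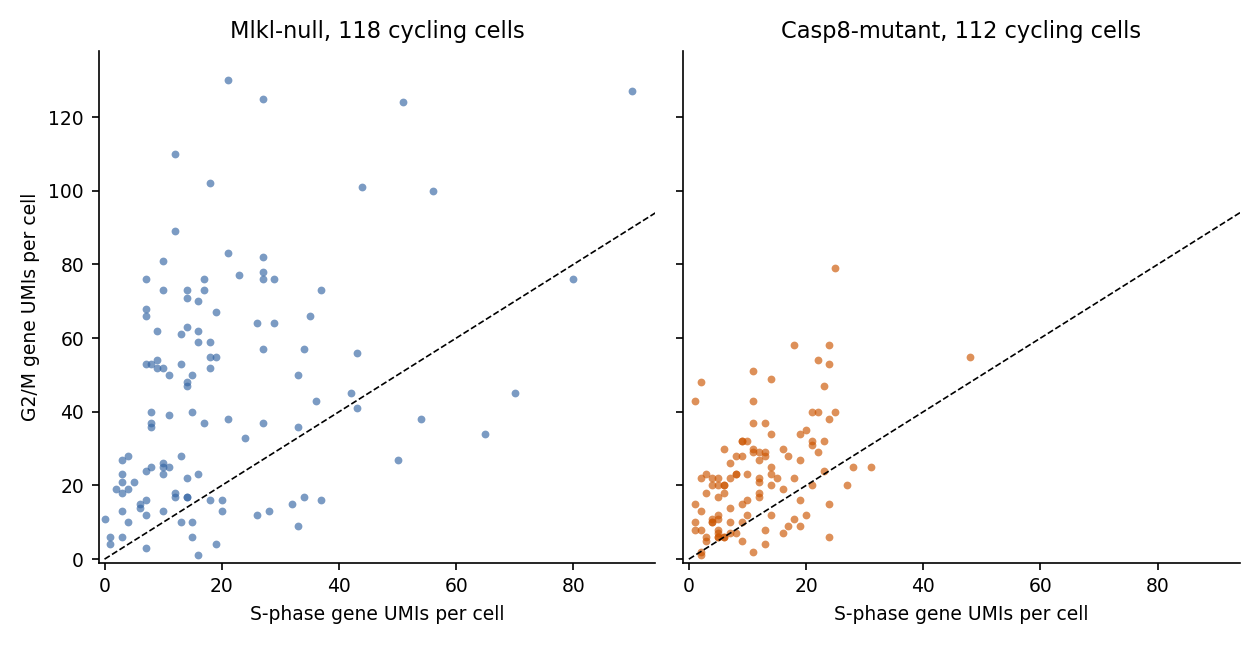
UMIs of S genes against UMIs of G2 and M genes in each cycling cell, by library; the dashed line marks equal numbers. Most cells of both libraries lie on the G2 and M side, 97 of 118 and 89 of 112.

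The promoters of 2 rule genes show an element found in many, but not all, mitotic genes. The window runs from 250 bases before to 50 bases after the RefSeq start site (GRCm38.p6), so its last 50 bases lie in the first exon. Capitals mark TTTGAA, the core of the CHR element, and CCAAT, the NF-Y box, on either strand (TTCAAA and ATTGG when reversed); in the Ube2c window the capitals CCAATTGG are 2 boxes that overlap. Ccnb2 is shown for its genotype ratio of 0.427 and Ube2c for its ratio of 0.870; their windows are chr9:70421505-70421804 on the minus strand and chr2:164769679-164769978 on the plus strand.
Ccnb2: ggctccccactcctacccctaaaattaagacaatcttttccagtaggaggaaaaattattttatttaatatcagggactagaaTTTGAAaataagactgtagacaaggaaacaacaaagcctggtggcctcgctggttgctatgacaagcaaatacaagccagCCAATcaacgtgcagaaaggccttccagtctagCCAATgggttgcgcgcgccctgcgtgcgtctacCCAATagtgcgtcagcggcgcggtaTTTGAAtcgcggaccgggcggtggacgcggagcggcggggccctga
Ube2c: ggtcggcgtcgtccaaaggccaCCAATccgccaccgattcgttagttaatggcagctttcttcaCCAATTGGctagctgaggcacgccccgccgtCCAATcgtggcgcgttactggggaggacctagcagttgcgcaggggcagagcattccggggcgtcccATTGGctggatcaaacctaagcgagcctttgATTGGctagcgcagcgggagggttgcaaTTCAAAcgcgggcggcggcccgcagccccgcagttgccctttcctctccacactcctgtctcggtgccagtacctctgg
Both windows held both motifs. TTTGAA was in 14 of 23 spindle genes with a window (60.87%) and 9 of 14 mitotic exit genes (64.29%), and in 3 of 9 mitotic entry genes (33.33%), against 20.23% of 27025 genes and 17.89% of 32851 windows. TTTGAA with CCAAT was in 12 of the 23 (52.17%) and 7 of the 14, against 7.974% of all genes. An E2F motif, TTTCCCGC or TTTGGCGC, was in 3 of 8 licensing genes and 5 of 17 fork genes and in none of 10 nucleotide synthesis genes, against 1.798% of all. A match is a description of the letters and no evidence of binding.

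Regulators of G1 entry and exit differed by gene, beside 9.32% higher and 16.4% lower over all genes. Ccnd2, a D-type cyclin, had 883 and 426 UMIs (ratio 0.663, 0.588 to 0.744) and was not called, nor was Ccnd1 with 54 and 61. Cdk4, its kinase partner, was lower with 453 and 102 UMIs (0.310, 0.247 to 0.384), and so was Ccnd3 with 81 and 27. Myc, with 14 and 25 UMIs, was called higher (2.41, 1.23 to 5.10). Of 5 CDK inhibitors tested 3 were lower. Cdkn1c, or p57, an imprinted gene, had 361 and 46 UMIs (0.177, 0.126 to 0.238), Cdkn1b, or p27, 29 and 5, and Cdkn2b, or p15, 38 and 7. After thinning 1 of the 3 was lower. Cdkn1a, the p53 target p21, had 156 and 157 UMIs and was not called (1.38, 1.10 to 1.74).

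Interferon-stimulated genes were higher in the Casp8-mutant cycling cells. Of 46 listed, 39 were tested, 36 were called higher and none lower, beside 9.32% and 16.4% of all genes. The median log2 ratio was 4.20, or 3.96 with genes absent from 1 library at their lower bound, and 4.44 in the other epithelial cells. Summed, they had 639 UMIs, or 674 CPM, in the Mlkl-null and 5051 UMIs, or 7317 CPM, in the Casp8-mutant cells, a ratio of 10.8 (9.99 to 11.8). Eif2ak2, Ifi27 and Irf9 were not called, at 1.84, 1.44 and 2.04. With fewer genes reaching 20 UMIs, 15 were called higher at the cycle minimum of 5 UMIs and 0.2% and 13 after thinning.

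Isg15, the ubiquitin-like modifier, had 18 UMIs in 8 of 118 Mlkl-null cells and 639 UMIs in 107 of 112 Casp8-mutant cells, a ratio of 47.4 (30.6 to 82.7). Ifitm3, which blocks virus entry, had 84 and 926 UMIs (15, 12.1 to 19.1) and Bst2, or tetherin, 42 and 624 (20.2, 14.9 to 28.6). Among regulators, Irf7 had 20 and 233 UMIs, with 12 of the 20 in 1 cell, and Stat2 had 4 and 32. Antiviral effectors had few UMIs in the Mlkl-null cells: Ifit1 had 6 and 95 UMIs, Oasl2 3 and 86, Xaf1 2 and 91 and Rtp4 3 and 112. Oas2 had 0 and 43 UMIs, Iigp1 0 and 48 and Igtp 0 and 37, at least 19.7-fold, 22-fold and 16.9-fold higher if the Mlkl-null cells are set to a floor of 3 UMIs in all. Zbp1, the sensor that binds RIPK3, had 5 and 85 UMIs (21.3, 9.62 to 73.7) and was seen in 5 of 118 and 49 of 112 cells.

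Haemoglobin barcodes held the same genes, at other levels. In haemoglobin barcodes, with haemoglobin UMIs left out, the list had 3073 CPM in the Mlkl-null and 16773 in the Casp8-mutant library, above both values in cycling cells. Counted per barcode instead, it had 5.42 UMIs per Mlkl-null cycling cell and 1.67 per haemoglobin barcode, and 45.1 and 5.65 in the Casp8-mutant library. After thinning, Isg15 was seen in 2.65% of 113 and 73.1% of 104 cycling cells; without thinning the shares were 6.78% and 95.5%, and the haemoglobin barcodes, at lower depth, had it in 13.5% and 70.7%. The thinned Isg15 share was close to the haemoglobin-barcode share in the Casp8-mutant library and below it in the Mlkl-null, but those barcodes were not thinned. The part of free RNA in it was not tested. Counted per barcode, Isg15 had 0.153 UMIs per Mlkl-null cycling cell against 0.519 per haemoglobin barcode, and 5.71 against 1.83 in the Casp8-mutant library. Zbp1 was seen in 1.77% and 23.1% of thinned cells, 4.24% and 43.8% of unthinned cells and in 0% and 4.07% of haemoglobin barcodes.

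The list's share of each cell's UMIs separated the libraries with some overlap. Mlkl-null cycling cells had a lowest, median and highest share of 0%, 0.0510% and 1.17%, and Casp8-mutant cycling cells 0.154%, 0.711% and 1.71%. Of the 118 Mlkl-null cells 8 lay above the lowest Casp8-mutant cell and 1 above the Casp8-mutant median. Of the 112 Casp8-mutant cells 94 lay below the highest Mlkl-null cell and 39 below the second highest, at 0.610%. Cells with more S than G2 and M UMIs had 636 and 7697 CPM of the list and those with more G2 and M 682 and 7209, so the list was detected on both sides of the cycle in each library. Other epithelial cells had medians of 0.0862% and 1.46%, higher than cycling cells in both libraries.

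**Figure D3:**
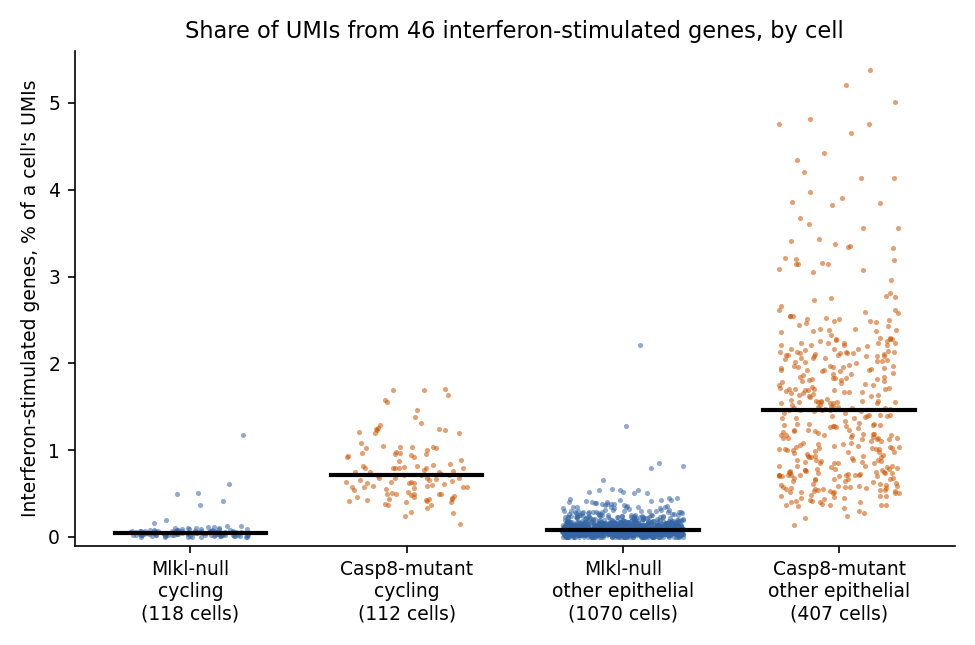
Share of each cell's UMIs from the interferon-stimulated list, in percent, for cycling and other epithelial cells of each library; points are cells and bars medians. Casp8-mutant cycling cells centre on 0.711% against 0.0510% in Mlkl-null cycling cells, and the other epithelial cells lie higher in both libraries.

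The ISRE core is shown in the promoters of Isg15 and Ifit1, which were both called higher. Capitals mark GAAANNGAA on either strand, and matches that overlap run together. The windows, again 250 bases before to 50 after the start, are chr4:156200769-156201068 on the minus strand and chr19:34640639-34640938 on the plus strand.
Isg15: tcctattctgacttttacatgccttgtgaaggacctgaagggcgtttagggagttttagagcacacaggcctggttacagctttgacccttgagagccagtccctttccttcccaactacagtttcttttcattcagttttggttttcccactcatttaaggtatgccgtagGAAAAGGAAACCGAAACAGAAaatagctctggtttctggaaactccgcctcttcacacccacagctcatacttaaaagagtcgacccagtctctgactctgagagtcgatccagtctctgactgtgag
Ifit1: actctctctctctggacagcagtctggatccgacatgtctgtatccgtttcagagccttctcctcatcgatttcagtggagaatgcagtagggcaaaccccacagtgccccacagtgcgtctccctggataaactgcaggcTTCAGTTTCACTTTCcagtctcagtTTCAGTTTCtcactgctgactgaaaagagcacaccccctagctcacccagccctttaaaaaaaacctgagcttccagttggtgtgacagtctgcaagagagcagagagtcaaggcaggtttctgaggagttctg
Each window held 3 matches. The motif was in 23 of 33 interferon-stimulated genes with a window (69.7%), against 9.761% of all genes and 8.56% of all windows, and in none of the 14 windows of the rule's cycle genes.

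MHC class I presentation was higher in the Casp8-mutant cycling cells. Of 18 genes tested 13 were called higher and none lower, beside 9.32% and 16.4% of all genes, with a median log2 ratio of 1.59, and 1.67 in the other epithelial cells. B2m, the invariant chain, had 220 UMIs in the Mlkl-null and 774 in the Casp8-mutant cells (4.82, 4.15 to 5.63). The heavy chains H2-D1 and H2-K1 had 161 and 381 (3.24) and 182 and 276 (2.08). The immunoproteasome subunit Psmb8 had 26 and 210 (10.9, 7.36 to 17.4) and the peptide transporter Tap1 5 and 75 (18.8, 8.44 to 65.2). Calr, Canx, Psme2, Tapbpl and Erap1, which fold, load or trim peptides or activate the proteasome, were not called. After thinning 5 genes were called higher. Per cell the list had 19.3 and 31.0 UMIs, against 1.5 and 2.02 per haemoglobin barcode.

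MHC class II went the other way and depended on a few cells. All 4 genes tested were lower, Cd74 with 190 and 39 UMIs, H2-Ab1 with 74 and 10, H2-Aa with 47 and 15 and H2-Eb1 with 28 and 8. In the Mlkl-null library 1 cell held 31.6% of the Cd74 and 36.2% of the H2-Aa UMIs. Without the mixed cells the summed log2 ratio was 0.30, with Cd74 at 0.55 and H2-Aa at 1.29, so the direction turned.

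Most antimicrobial and acute phase genes tested were higher. Of 17 tested 12 were higher, beside 9.32% of all genes, and Leap2, with 18 and 3 UMIs, was lower; after thinning, or at the cycle minimum of 5 UMIs and 0.2%, 7 were higher. Reg3b, a lectin secreted against bacteria, had 31 UMIs in the Mlkl-null and 3149 in the Casp8-mutant cells, a ratio of 137 (98.0 to 206). Its neighbour Reg3g (chr6:78466269-78468872, minus strand) had 1 and 1614 UMIs, a ratio of 1477 (397 to 87549). Per cell Reg3b had 28.1 and Reg3g 14.4 UMIs in the Casp8-mutant library, against 1 and 0.390 per haemoglobin barcode. After thinning Reg3g was seen in 0 of 113 and 81.7% of 104 cells, and in 0 of 52 and 33.3% of 123 haemoglobin barcodes. Duox2, which makes hydrogen peroxide at the apical membrane, had 0 and 40 UMIs, and its maturation factor Duoxa2 had 1 and 107. Lcn2, an iron-siderophore trap, had 0 and 54, at least 24.7-fold higher. Saa3 had 0 and 65, with 53.8% in 1 cell. Defa24, a Paneth cell defensin, and Pigr, the immunoglobulin A transporter, were not called, with 422 and 185 and 73 and 43 UMIs.

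S100a8 and S100a9, calprotectin subunits that are also granulocyte markers, had 10 and 974 and 6 and 989 UMIs. S100a9 had 1433 CPM in Casp8-mutant cycling cells and 8664 in haemoglobin barcodes, but 8.83 UMIs per cell against 2.92 per barcode. It was seen in 93.3% of thinned Casp8-mutant cells, 99.1% of unthinned ones and 86.2% of haemoglobin barcodes, so most barcodes of either kind held it. Whether these cells expressed it was not tested.

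Ly6a, or Sca-1, a surface marker of fetal-like and regenerating epithelium, was not detected in Mlkl-null cycling cells. It had 0 UMIs there and 645 in 93 of 112 Casp8-mutant cells, at least 295-fold higher by the same floor. It was seen in 66.3% of thinned Casp8-mutant cells, and in 13.0% of haemoglobin barcodes, with 5.76 UMIs per cell against 0.163 per barcode. Of 10 fetal and regenerative genes tested 4 were higher, beside 9.32% of all genes: Ly6a, S100a6 with 404 and 697 UMIs, Anxa2 with 194 and 323 and Anxa1 with 7 and 35. Spp1, or osteopontin, was lower with 61 and 11, 50.8% of the 61 in 1 cell. Clu, Krt7 and Areg were not called, at 0.612, 0.848 and 1.5. The count of 0 in 118 Mlkl-null cells allows a share of up to 2.54% with a Ly6a UMI (3 counts of the total).

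Some NF-kB and TNF targets were higher. Of 15 tested 4 were higher and none lower, beside 9.32% and 16.4% of all genes. They were the neutrophil chemokine Cxcl2 with 24 and 339 UMIs (19, 12.8 to 30.7), Bcl3 with 11 and 59, Ccl20 with 9 and 25, and Lcn2. In the Mlkl-null library 66.7% of the Cxcl2 UMIs came from 1 cell. The feedback inhibitors Nfkbia and Tnfaip3 had ratios of 1.39 and 1.16 and were not called, and the median was 0.34 against 1.66 in the other epithelial cells.

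**Figure D4:**
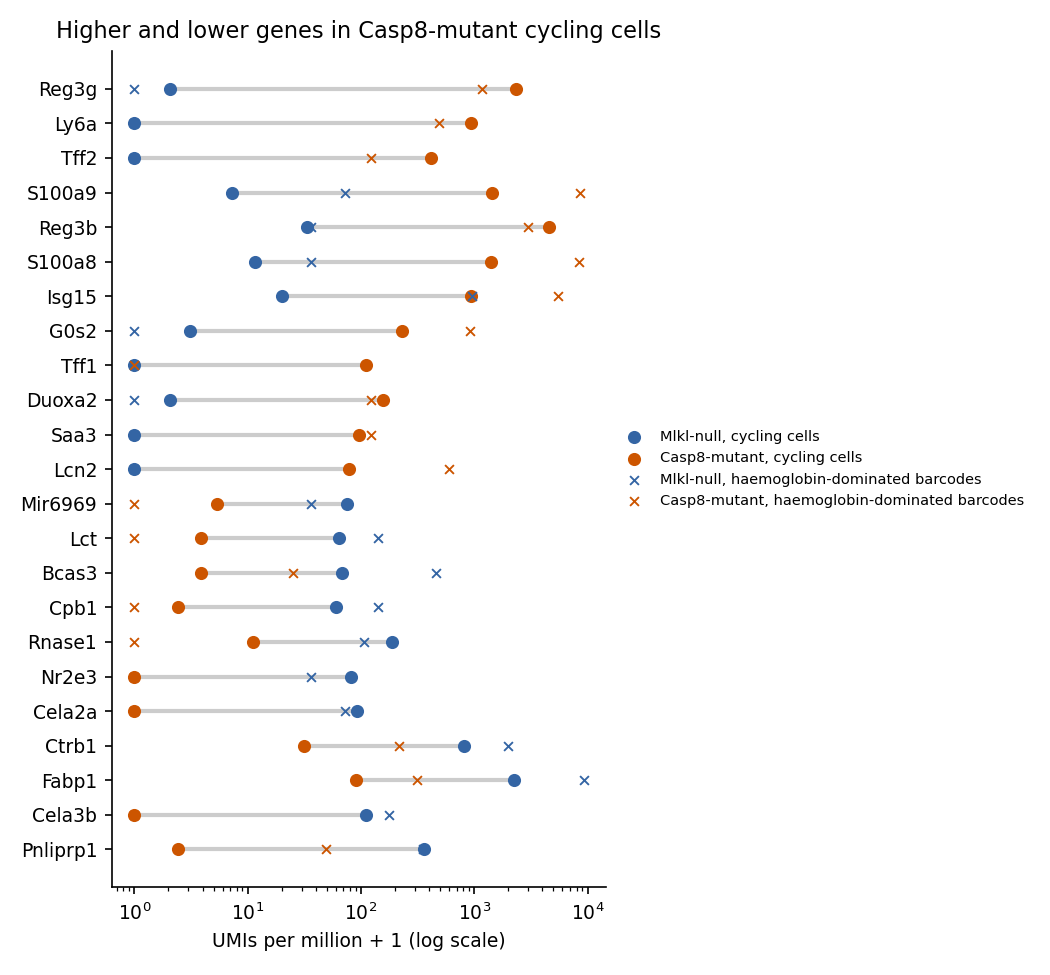
CPM plus 1 of the named genes in cycling cells of each library (dots) and in haemoglobin barcodes with haemoglobin UMIs left out (crosses), on a log axis. Ly6a is at 0 in Mlkl-null cycling cells and Fabp1 stands at 2232 CPM there against 89.8 in Casp8-mutant cells.

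Most cell death genes were not called, beside 9.32% higher and 16.4% lower over all genes. Of 20 cell death genes tested, Zbp1 was higher, Casp6, an executioner caspase, was lower with 51 and 12 UMIs (0.333, 0.157 to 0.614), and 18 were not called. Casp8, which carries the mutation, had 38 UMIs in the Mlkl-null and 39 in the Casp8-mutant cells (1.41, 0.878 to 2.26); a changed codon leaves the RNA countable, so this checks no label. Its necroptosis partners Ripk3 and Ripk1 had 28 and 38 (1.85, 1.11 to 3.15) and 17 and 17 UMIs. The adaptor Fadd had 17 and 10 and the inflammasome adaptor Pycard 1146 and 657. Mlkl, labelled -/- in both embryos, had 0 and 3 UMIs in cycling cells, 1 and 9 in other epithelial cells and 0 and 1 in non-epithelial cells. UMIs of the gene were thus seen in both libraries, and what the allele removes is not given in the labels, so these counts check no label. Of 11 p53 targets Plk2 and Zmat3 were higher, and Pmaip1, or Noxa, with 141 and 39 UMIs, Gadd45a and Sesn1 lower. The median of that list was 0.19 and its summed ratio 0.967.

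Enterocyte lipid genes were lower in the Casp8-mutant cycling cells. Of 18 tested 15 were lower, beside 16.4% of all genes, and Fabp6, the ileal bile acid binding protein, was higher with 28 and 148 UMIs (7.15, 4.82 to 11.3). Fabp1, the fatty acid binding protein, had 2115 UMIs in the Mlkl-null and 62 in the Casp8-mutant cells, 24.7-fold lower (19.3 to 32.5). Rbp2, which binds retinol, had 845 and 107 UMIs, Fabp2 848 and 148, Dgat2, which completes triglyceride, 851 and 195, and the apolipoprotein Apoa4 1577 and 573. Apoa1 had 1405 and 1087 and was not called (1.06, 0.980 to 1.15). Summed, the list had 11258 and 4365 CPM, a ratio of 0.388 (0.372 to 0.404), and 0.259 in the other epithelial cells. Its median share of a cell's UMIs was 1.05% and 0.396%, against 7.57% and 1.79% in the other epithelial cells.

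The haemoglobin barcodes carried these transcripts as well. The list had 90.4 and 26.9 UMIs per cycling cell and 23.8 and 5.24 per haemoglobin barcode, and Fabp1 was seen in 96.5% and 14.4% of thinned cells, 100% and 41.1% of unthinned cells and 100% and 10.6% of haemoglobin barcodes. In CPM the haemoglobin barcodes exceeded the cycling cells, at 43660 and 15566. The share with a Fabp1 UMI was at or near 100% in both kinds of Mlkl-null barcode and so cannot tell them apart. Fabp1 had 17.9 and 0.554 UMIs per cycling cell and 5.04 and 0.106 per haemoglobin barcode. Whether these dividing cells made the RNA was not tested.

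Other enterocyte functions were lower in part. Lct, or lactase, had 60 and 2. Of 16 brush border genes 5 were lower, beside 16.4% of all genes: Lct, Amn, Alpi, Espn and Naaladl1, and Vil1, or villin, was not called with 219 and 145. Of 21 lineage transcription factors 7 were lower and none higher, against the same 16.4%, and 1 was lower after thinning. Nr2e3, a nuclear receptor (chr9:59942771-59960659, minus strand), had 76 UMIs in 42 Mlkl-null cells and 0 in Casp8-mutant cells, at least 18.5-fold lower. Maf had 211 and 62, Creb3l3 94 and 15, Prdm1, a repressor of postnatal enterocyte genes, 57 and 12, and Hnf4g, Gata6 and Gata4 60 and 17, 60 and 20 and 24 and 5. The intestinal master regulators Cdx1 and Cdx2 had 225 and 122 and 130 and 56 and were not called. Bcas3 was also among the 12 genes ranked lowest, with 64 and 2 UMIs.

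Most imprinted growth genes were lower. Of 10 tested 9 were lower, beside 16.4% of all genes, and Plagl1, with 34 and 19 UMIs, was not called. H19, a long non-coding RNA silenced on the paternal allele, had 1457 UMIs in the Mlkl-null and 241 in the Casp8-mutant cells (0.227, 0.197 to 0.260), and Igf2, its growth factor neighbour, 127 and 28. H19 was seen in 89.4% and 45.2% of thinned cells, 99.2% and 75.9% of unthinned cells and 82.7% and 21.1% of haemoglobin barcodes. The list had 20.2 and 3.99 UMIs per cycling cell and 2.96 and 0.528 per haemoglobin barcode. In 1 Mlkl-null cell lay 62.0% of the Dlk1 and in 1 cell 33.1% of the Meg3 UMIs, and 5 genes were lower without the mixed cells and 2 after thinning.

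Secretory and stem cell genes differed by gene, beside 9.32% higher and 16.4% lower over all genes. Of 10 goblet genes Muc2, the gel-forming mucin, with 37 and 115 UMIs, Clca1 with 19 and 44, and Zg16 with 13 and 127, were higher. The rule limits goblet content through Tff3 and Spink4. Without those 2 genes the summed log2 ratio of the goblet list was 0.30, but -0.38 after thinning, so its direction turned. Of 9 enteroendocrine genes 5 were higher, Sct, Pyy, Chgb, Chga and Tac1, and Gip was lower, but single cells held 55.1% of the Casp8-mutant Pyy and 53.7% of the Mlkl-null Gip. Tff2 and Tff1, gastric trefoil genes at 0 in the Mlkl-null cells, had 286 and 76 UMIs in the Casp8-mutant, of which 95.1% and 94.7% lay in 1 cell. Of 12 stem and Wnt genes tested Cd44 was higher with 12 and 19 UMIs, and Slc12a2, a chloride transporter of the proliferative zone, and Smoc2 were lower with 151 and 29 and 18 and 3. Sox9, with 92 and 75, was not called.

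Junction, stress and growth genes completed the comparison, beside 9.32% higher and 16.4% lower over all genes. Of 14 junction genes 5 were lower, among them the desmosome plaque protein Dsp with 97 and 19 UMIs, Ocln with 67 and 20, Cldn23 with 51 and 16, and the scaffold Tjp1 with 47 and 10. After thinning 2 were lower. E-cadherin, Cdh1, had 108 and 76 and was not called. Of 16 immediate-early and heat shock genes Jun, Fosb and Hsph1 were lower and Hspa1b was higher. Of 14 ER stress genes Asns was higher and none was lower. Ribosome biogenesis genes had a median of 0.46, with Nop56, at 27 and 63 UMIs, and Ppan, at 25 and 39, called of 19. Hk2, a hexokinase, was higher with 54 and 197 UMIs and Ndrg1 lower with 494 and 55, the only calls among 18 hypoxia and glycolysis genes. Of 10 mitochondrially encoded transcripts mt-Nd1, mt-Nd4 and mt-Cytb were lower.

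**Figure D5:**
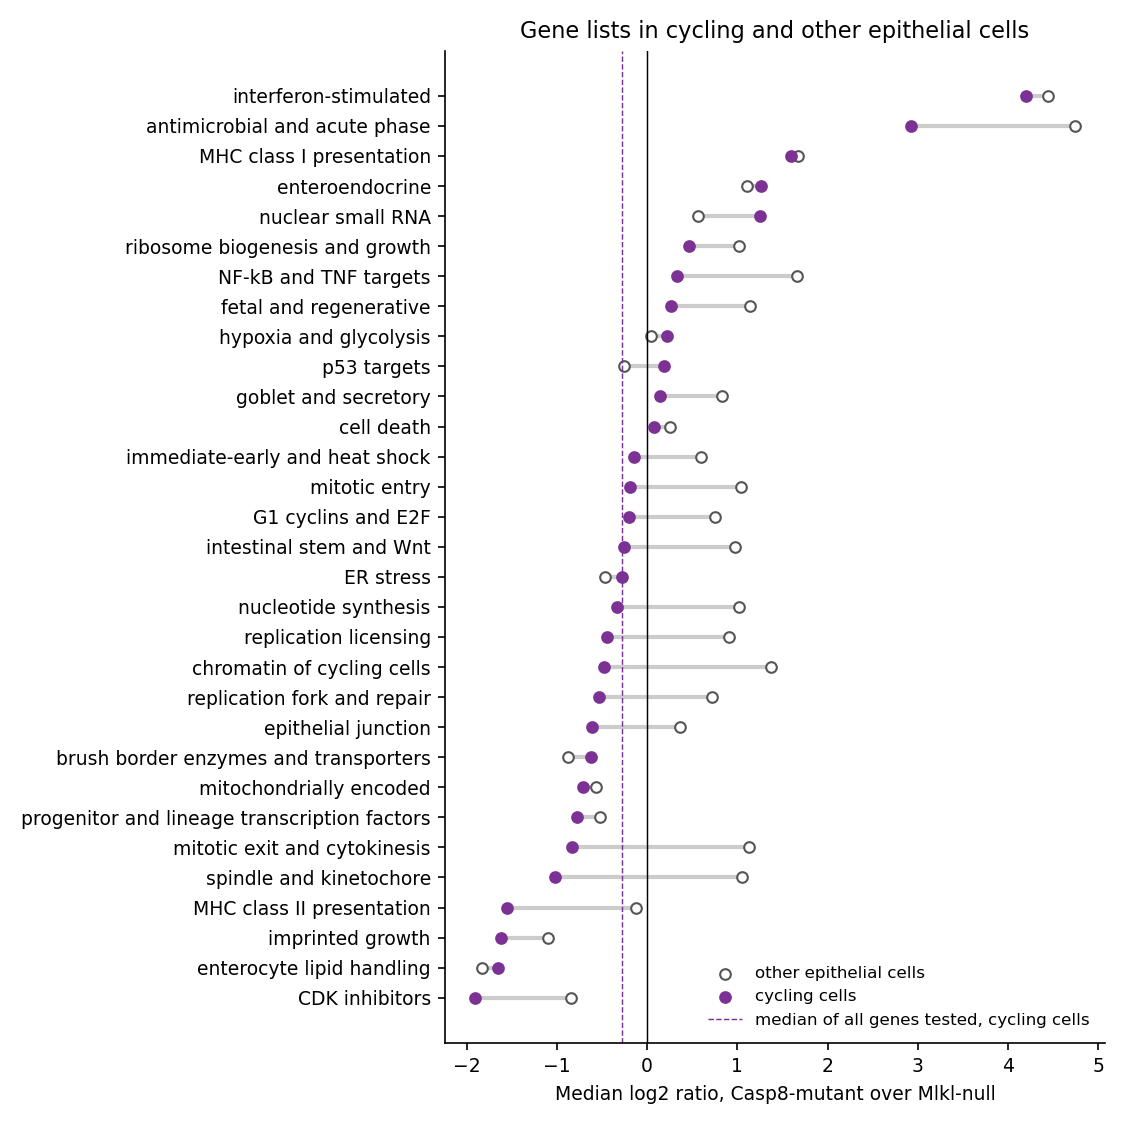
Median log2 ratio, Casp8-mutant over Mlkl-null, of the tested genes of each of 31 lists in cycling cells (filled) and other epithelial cells (open); the dashed line is the median of all genes tested in cycling cells, -0.28. Among the filled points the interferon-stimulated list stands furthest right, at 4.20, and the CDK inhibitor and lipid lists furthest left, at -1.90 and -1.65; among the open points the antimicrobial list does, at 4.74.

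Genes of the exocrine pancreas were lower in the Casp8-mutant cycling cells, with much of the Mlkl-null count of each in 1 cell. Pnliprp1 had 340 UMIs in the Mlkl-null and 1 in the Casp8-mutant cells, Ctrb1 773 and 21, Cela3b 104 and 0, Cela2a 86 and 0, Cpb1 56 and 1 and Rnase1 176 and 7. Of the Mlkl-null UMIs 80.9%, 65.5%, 81.7%, 52.3%, 82.1% and 66.5% lay in 1 cell. Without the top cell of each library the UMIs were 65 and 0, 267 and 20, 19 and 0, 41 and 0, 10 and 0 and 59 and 4, so all 6 still had more in the Mlkl-null cells. Without the mixed cells Pnliprp1, Ctrb1, Cela2a and Rnase1 were lower, and Cela3b and Cpb1 were no longer called. At least 3 UMIs of the 8 acinar markers were in 85 of 118 Mlkl-null and 1 of 112 Casp8-mutant cycling cells. Ctrb1 had 6.55 and 0.188 UMIs per cycling cell and 1.08 and 0.0732 per haemoglobin barcode, and the part of free RNA was not tested. The Mir6969 locus, with 70 and 3 UMIs, had 81.4% in 1 cell. G0s2, an inhibitor of lipolysis, was higher with 2 and 158 UMIs, in 74 of 112 Casp8-mutant cells.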

How the data were processed

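The deposited files hold counts of unique molecular identifiers per Ensembl gene and cell barcode, made by the authors from 10x Chromium 3' v2 libraries of 1 embryo per genotype. Cell Ranger 3.0.2, Seurat 3.0 and mm10 stand in the submitters' processing notes, and the barcode filter and strand setting, not given in the sources used here, could change the counts. Of 52636 gene identifiers 52403 had a symbol in GENCODE vM21.

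From these counts, members were chosen, UMIs summed per library and shares, ratios and intervals computed with Python 3.11.15, numpy 2.4.6, scipy 1.17.1 and pandas 2.3.3. Ratios are shares of all UMIs with 0.5 UMI added to each sum. A floor of 3 UMIs over the library gave the bounds for genes at 0. Scripts were tested on simulated data. Members, lists and rules were chosen with earlier results of these data known. Sequences come from RefSeq windows and coordinates from GENCODE, both GRCm38.

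Named genes were first the 12 highest and 12 lowest by the interval bound nearest to 1. These had at least 30 UMIs and 50 CPM, and at least 25% of the level in non-epithelial cells. Rule, mitochondrial, ribosomal protein, haemoglobin, predicted and sex-linked genes were left out of that ranking. Among those left out was Xist, whose lower bound of 849 exceeded the 397 of Reg3g. Added were the 12 most raised over other epithelial cells outside the cycle lists, 4 from each of 31 lists, and a set always looked up. Others from the lists were named after their values were seen. A few of these genes are not reported here. Scrublet in scanpy 1.11.5 marked 5 and 2 barcodes, 0 and 1 of them members, too few to count as working, so no doublets were removed. Alternatives varied the rule, depth, scaling, filters and mixed cells. Overlapping genes and near-identical copies are uncertain.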

Additional observations from a re-analysis of the deposited data

Results flagged for a closer look

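Outside the cycle lists, 3 gene lists had summed UMI ratios, Casp8-mutant over Mlkl-null, on opposite sides of 1 in cycling and other epithelial cells. In these both intervals left out 1. The cycle lists, which are close to the member rule, were not counted. Several of them also lay on opposite sides, such as spindle and kinetochore genes at 0.527 and 2.27. The CDK inhibitors, at 0.522 and 0.288, did not. Intestinal stem and Wnt genes had a ratio of 0.789 in cycling cells and 1.94 in other epithelial cells. Epithelial junction genes had 0.69 and 1.32. Immediate-early and heat shock genes had 0.786 and 1.11. Each value comes from 1 embryo per genotype, and the difference between the cell groups was not tested.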

How the results depend on the processing

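No paired analysis was possible because each genotype was 1 embryo and the values come from no test. With the cycle minimum at 5 UMIs and 0.2% the ratio of cycling shares was 1.05, 391 genes were higher and 635 lower, and 15 interferon-stimulated genes were higher with a summed log2 ratio of 3.13 (3.44 in the report). After thinning, which left out cells under 2000 UMIs, these were 3.19, 287, 355, 13 and 3.88. They were 1.46, 336, 521, 14 and 3.69 without cells holding 3 or more UMIs of other-class markers, granulocyte, acinar, erythroid and mesothelial aside. The share ratio was 2.88 at an epithelial minimum of 10 UMIs, with an interferon sum of 3.82, and 3.01 at 1000 genes. The interferon sum was 3.89 without mixed cells and 3.31 as a mean of cell shares. A minimum of 50 UMIs gave 469 higher, 772 lower and 22 interferon-stimulated genes, and a 1.5-fold limit 1302 higher.

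Signs that turned, as log2 ratios: Meg3 was 0.47 at 0.2% and 0.75 without other-class cells. The MHC class II sum was 0.53 at the epithelial minimum of 10 UMIs, 1.09 after thinning, 0.30 without mixed cells and 0.74 without other-class cells. In that order Cd74 was 0.83, 0.81, 0.55 and 0.52, and H2-Aa 1.16, 1.78, 1.29 and 2.32. H2-Eb1 was 0.67, 0.19 after thinning and 3.54 without other-class cells, and H2-Ab1 1.78 after thinning. The goblet sum was -0.38 after thinning. The cause was not tested. The mixed-cell, other-class-without-acinar and Ube2c alternatives were added after the data were seen; the planned filter that counted granulocyte and acinar markers left 12 and 0 members and gave no value. Gene by gene, 2034 of the alternatives' values for named genes kept their side of the limit, 80 no longer passed it, 15 newly passed it and 14 turned sign. Turned signs were sought only among genes called in the report and sums whose interval there left out 1. Genes not called may have changed sign uncounted. Depth limits genes under 20 UMIs, which were not tested.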
